A study of Oryza sativa Japonica Group with 31 samples.

Results

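The core circadian clock of rice was followed through 10 genes, chosen by name and locus identifier: LHY (LOC_Os08g06110), PRR37 (LOC_Os07g49460), PRR73 (LOC_Os03g17570), PRR59 (LOC_Os11g05930), PRR95 (LOC_Os09g36220), PRR1, also called TOC1 (LOC_Os02g40510), GI (LOC_Os01g08700), ELF3-1 (LOC_Os06g05060), ELF3-2 (LOC_Os01g38530) and LUX (LOC_Os01g74020). All 10 were among the 55801 loci of the deposited expression table, and all 10 had a mean of at least 1 FPKM over its columns, as did 20876 loci in all. FPKM is the number of sequenced fragments scaled to the length of a locus and to the mapped fragments of a library. The table does not pair identifiers with names. The RefSeq gene table of assembly ASM3414082v1 holds a gene under the name of 8 of the 10, with LUX listed there as PCL1, and each of the 8 lies on the chromosome written in the identifier used here. PRR59 and ELF3-2 were not found by name.

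The plant clock is a loop of transcription factors that repress one another at successive times of day. LHY, a MYB factor made around dawn, represses genes of the evening, and in Arabidopsis the pseudo-response regulators (PRRs) repress the LHY and CCA1 genes in turn from morning to night. In rice the PRR transcripts peak in the order PRR73 and PRR37, then PRR95 and PRR59, then PRR1. In Arabidopsis ELF3 and LUX, together with ELF4, form the evening complex, which represses clock genes at night, and GI stabilises the photoreceptor ZTL, which targets TOC1 protein for degradation. In rice the clock also sets heading date, and PRR37, GI and ELF3-1 are known there as flowering time genes.

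Leaves of Nipponbare, a japonica rice cultivar, were profiled by RNA-seq after enrichment of poly(A) RNA. Seedlings grew in a cycle of 12 h light and 12 h dark at 28 °C and 22 °C. From day 13 the cold group was held at 4 °C for 24 h and the control group stayed in the growth conditions. Each group had 2 libraries, called biological replicates in the labels, among 31 libraries in the series, and the other 27, from other assays, were not used here. The table gives a single FPKM column for each treatment, and how the 2 libraries of a group became 1 column is not stated in the labels. No value below therefore has a replicate error, and no test was possible. The depth behind each column is unknown. The hour of collection and the light given during the cold are not given in the labels. Whether both groups were collected at the same hour is therefore not known. With 1 collection per treatment, a level that differs over the whole day and a daily course that differs in its timing cannot be told apart. Nor can either be told apart from a different hour of collection in the 2 groups. The leaf label was not checked against leaf markers, because the table names no locus.

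In control leaves LHY stood far above every other clock gene, and in cold leaves it did not. LHY was lower in cold, 8 other clock genes were at least 2-fold higher, and ELF3-1 differed by less than 2-fold. Differences past a limit are given on the log2(FPKM + 1) scale, where low genes differ less than in their FPKM ratio. Over the 20876 loci, 12.5% passed the 2-fold limit upwards and 19.2% downwards. When the cold column was rescaled by the median of the cold to control ratios, 21245 loci had a mean of at least 1 FPKM. The shares over these loci were 18.2% and 11.5%, and the counts of clock genes became 8 higher and 0 lower. Of the 10 genes, 6 passed 4-fold upwards, as did 3.86% of all loci kept, 5 passed 8-fold (1.18% of loci) and 4 passed 16-fold (0.383% of loci). The log2 difference had a median of 2.91 over the 10 genes and −0.27 over all loci kept. With 5 added to each FPKM in place of 1, PRR1 (log2 difference 3.99), GI (3.94) and LUX (3.13) fell below the 16-fold limit. PRR37 (1.67) then fell below the 4-fold limit. After the median-of-ratios rescaling PRR59 (4.12) passed 16-fold. The same 5 genes stayed past 8-fold in both settings. Leaves were measured in bulk, so fewer cells of a type and less RNA per cell cannot be told apart.

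**Figure D1:**
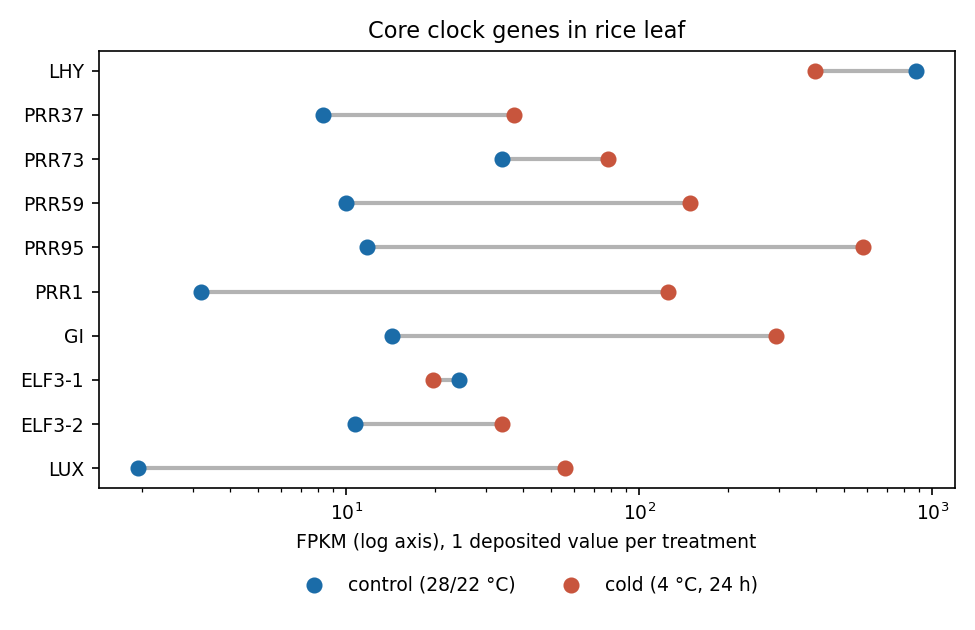
FPKM of the 10 clock genes on a log axis, with 1 deposited value for control (blue) and 1 for cold (red), joined by a grey line. LHY and ELF3-1 lie to the left in cold, and the other 8 lie to the right, with the longest line for PRR95, from 11.8 to 579 FPKM.

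LHY, the morning factor of the loop, had 878 FPKM in control leaves and 398 FPKM after cold, 2.20-fold lower. It remained an abundant transcript, at place 53 from the top of the control column and place 139 in cold. Its log2 difference was −1.14, and 3130 of the loci kept had a difference at least as low. Among the 152 loci with a mean from 300 to under 1000 FPKM, the class LHY belongs to, 21.7% were at least 2-fold lower. Rescaling by the median of ratios put LHY 1.73-fold lower in cold, under the 2-fold limit.

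The 5 PRR genes were all higher in cold, and to very different degrees. PRR73 and PRR37, the related pair of the morning, had the smallest differences of the family. PRR73 had a level of 34.0 FPKM in control and of 78.0 in cold, a cold to control ratio of 2.29. PRR37, known as the heading date gene DTH7 or Hd2, stood at 8.29 FPKM without cold and 37.2 FPKM with it, 4.49-fold higher. For the daytime pair the differences were larger. PRR59 had 9.94 FPKM in control leaves and 149 FPKM after cold, 15.0-fold higher. PRR95 had 11.8 FPKM in control leaves and 579 FPKM after cold, 49.2-fold higher and the largest difference of the 10 genes. PRR1, the rice counterpart of the Arabidopsis evening gene TOC1, had 3.18 FPKM in control leaves and 125 FPKM after cold, 39.2-fold higher.

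Summed over the 5 PRR genes, the level was 67.2 FPKM without cold and 968 FPKM with it, 14.4-fold higher. The make-up of the sum also differed. PRR73 held 50.6% of it in control and 8.06% in cold, while PRR95 held 17.5% in control and 59.8% in cold. PRR1 held 4.73% and 12.9%, and the share of PRR59 was similar in the columns, at 14.8% and 15.4%. The PRR95 log2 difference of 5.50 was among the highest of the table, since 13 of the 20876 loci, PRR95 included, had one at least as high. For PRR1, at 4.91, there were 30 such loci, and for PRR59, at 3.78, there were 105.

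GI, a large plant protein of clock and flowering control, had 14.4 FPKM in control leaves and 292 FPKM after cold, 20.3-fold higher. Its log2 difference of 4.25 was reached by 61 of the loci kept. GI was at place 7750 of the control column and place 216 of the cold column.

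Of the evening complex genes, LUX and ELF3-2 were more than 2-fold higher in cold and ELF3-1 was within 2-fold. LUX, a GARP-type DNA-binding factor that brings the complex to its targets in Arabidopsis, was the lowest clock gene in control at 1.94 FPKM and stood at 55.8 FPKM after cold, 28.8-fold higher. ELF3-2 had 10.7 FPKM in control leaves and 34.1 FPKM after cold, 3.19-fold higher. ELF3-1, the heading date gene Hd17 or Ef7, had 24.2 FPKM in control leaves and 19.7 FPKM after cold, 1.23-fold lower. The direction of ELF3-1 depended on the scale between the columns, with a log2 difference of −0.29 as deposited and 0.05 after rescaling by the median of ratios. Relative to the median of all loci kept it was −0.01, so ELF3-1 lay at the middle of the loci kept. LUX lay 4.55 above that median and ELF3-2 lay 1.86 above it.

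**Figure D2:**
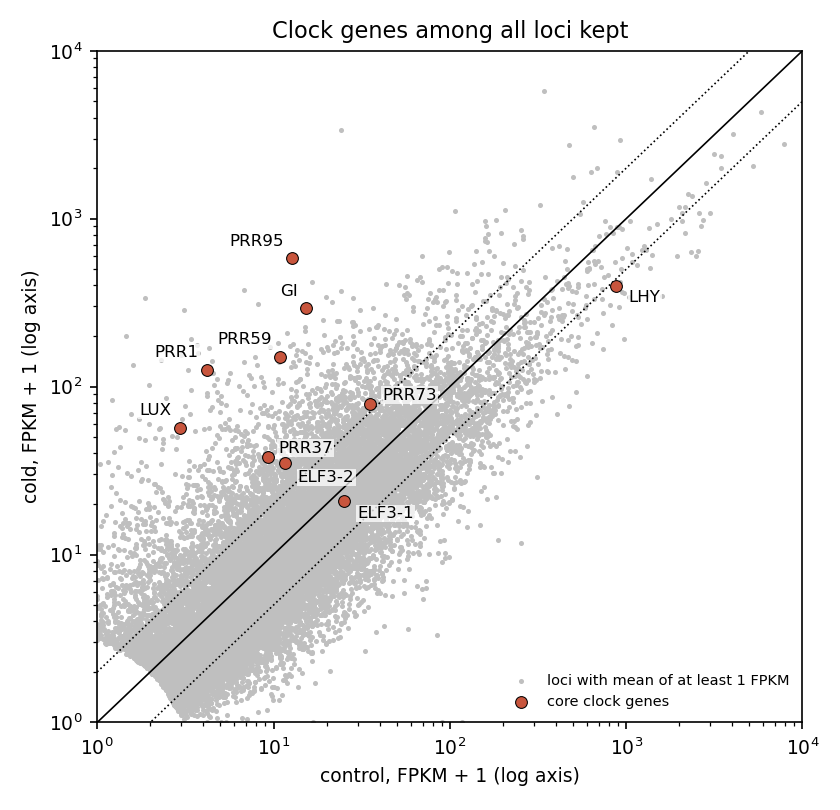
FPKM + 1 in control (horizontal) and cold (vertical) on log axes for the 20876 loci averaging 1 FPKM or more (grey) and the 10 clock genes (red). The solid line marks equal values and the dotted lines 2-fold differences. PRR95, GI, PRR59, PRR1 and LUX lie at the upper edge of the cloud, ELF3-1 lies near the solid line and LHY lies near the lower dotted line.

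Of the clock genes, 4 had a mean from 10 to under 30 FPKM, 3 from 30 to under 100 FPKM and 2 from 100 to under 300 FPKM. The shares of loci at least 2-fold higher in these classes were 13.3%, 21.0% and 23.2%. The mean includes the cold value, so a higher cold value itself moves a locus towards a higher class. PRR95, GI, PRR59, PRR1, LUX and PRR37 had control values below the lower edge of their class. Those of PRR73, ELF3-1 and ELF3-2 lay within it. The shares are therefore not those of loci matched by control level, and that comparison was not made. In the class of 10 to 30 FPKM, PRR37, ELF3-2 and LUX were past the limit and ELF3-1 was not. In the next class PRR73, PRR59 and PRR1 all were, and in the class of 100 to 300 FPKM both PRR95 and GI were.

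The order of the clock genes by level was rearranged. From high to low it was LHY, PRR73, ELF3-1, GI, PRR95, ELF3-2, PRR59, PRR37, PRR1 and LUX in control. In cold it was PRR95, LHY, GI, PRR59, PRR1, PRR73, LUX, PRR37, ELF3-2 and ELF3-1. FPKM is per length, so levels can be ordered between genes, but without replicates it is not known which neighbours in the order differ beyond their error. In control several lay close together, with PRR95, ELF3-2, PRR59 and PRR37 between 8.29 and 11.8 FPKM. PRR37 held the eighth place in both columns. The step from the highest to the lowest gene was 453-fold in control and 29.4-fold in cold. Without LHY it was 17.6-fold in control and 29.4-fold in cold, so the other 9 genes were not closer together in cold.

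The 10 genes summed to 996 FPKM in control, of which LHY held 88.1%. In cold they summed to 1767 FPKM, of which PRR95 held 32.7%, LHY 22.5% and GI 16.5%. Without LHY the sum was 118 FPKM in control leaves and 1369 FPKM after cold, 11.6-fold higher. As a share of all FPKM in the column, the 10 genes took 0.170% in control and 0.319% in cold.

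Ratios between clock genes within a column are free of any scaling by a constant between the columns. Set against genes of the evening, LHY stood much lower in cold. LHY was listed at 276 times the FPKM of PRR1 in control and at 3.19 times in cold. Against GI the ratio was 61.1 in control and 1.36 in cold, which puts LHY and GI at similar levels in cold. Against LUX it was 453 in control and 7.13 in cold. These 3 ratios were thus 86.4-fold, 44.8-fold and 63.6-fold lower in cold, and they share the LHY values. Most of each difference lay in the evening gene. LHY itself was 2.20-fold lower, while PRR1, GI and LUX were 39.2-fold, 20.3-fold and 28.8-fold higher. PRR37, PRR73, PRR59 and PRR95 together were listed at 20.1 times PRR1 in control and at 6.76 times in cold. The 4 genes did not share this direction. PRR37, PRR73 and PRR59 were 4.49-fold, 2.29-fold and 15.0-fold higher in cold, less than PRR1. PRR95 was 49.2-fold higher, more than PRR1, so it stood higher against PRR1 in cold.

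The ratio within each related pair differed between the columns, in no common way. PRR73 was listed at 4.11 times the FPKM of PRR37 in control and at 2.09 times in cold, so PRR73 was the higher of the pair in both. PRR95 was listed at 1.18 times PRR59 in control and at 3.88 times in cold. For the ELF3 pair the order turned, with ELF3-1 at 2.27 times ELF3-2 in control and at 0.579 times in cold. How reads that match both genes of a pair were counted is not stated in the labels.

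**Figure D3:**
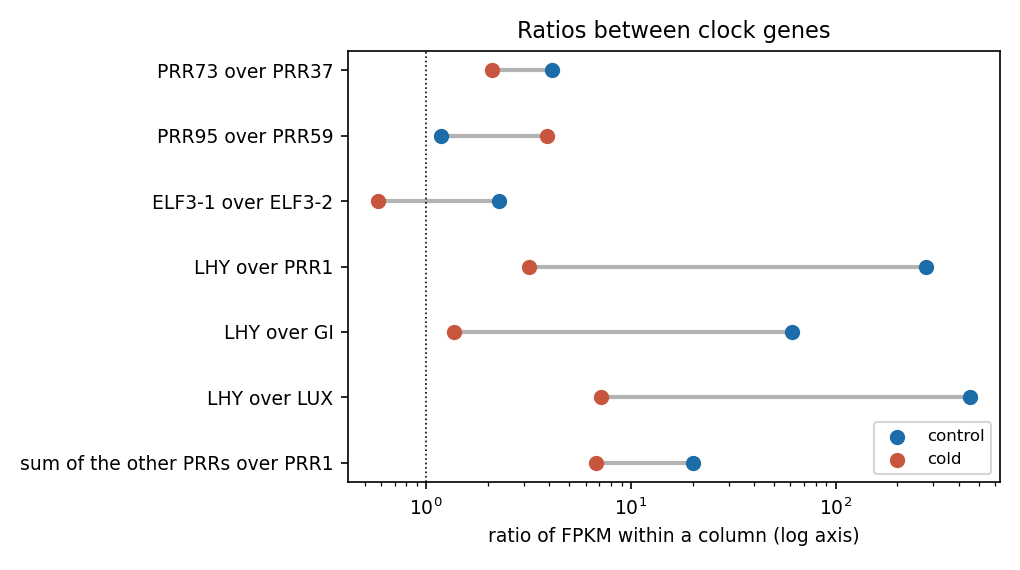
Ratios of FPKM between clock genes within the control column (blue) and within the cold column (red), on a log axis, with a dotted line at a ratio of 1. The other PRRs are PRR37, PRR73, PRR59 and PRR95. The ratios of LHY to PRR1, GI and LUX lie furthest apart between the columns, and only that of ELF3-1 to ELF3-2 crosses 1, from 2.27 to 0.579.

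The loci whose values were most like those of PRR95 and of LHY, the clock genes with the largest difference in each direction, were sought by Euclidean distance over log2(FPKM + 1) in the 2 columns. Nearest to PRR95 was LOC_Os08g40919, at 15.5 FPKM without cold and 420 FPKM with it, followed by LOC_Os04g41960, at 19.0 FPKM and 342 FPKM. Their distances of 0.59 and 0.99 show that few loci combine such values. LHY had closer company, with LOC_Os03g52840 at 917 FPKM without cold and 417 FPKM with it (distance 0.09) and LOC_Os12g08760 at 942 FPKM and 366 FPKM (distance 0.16). Within a distance of 0.5 there were 15 loci for LHY and 0 for PRR95. A likeness over 2 values is a description of these columns.

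**Figure D4:**
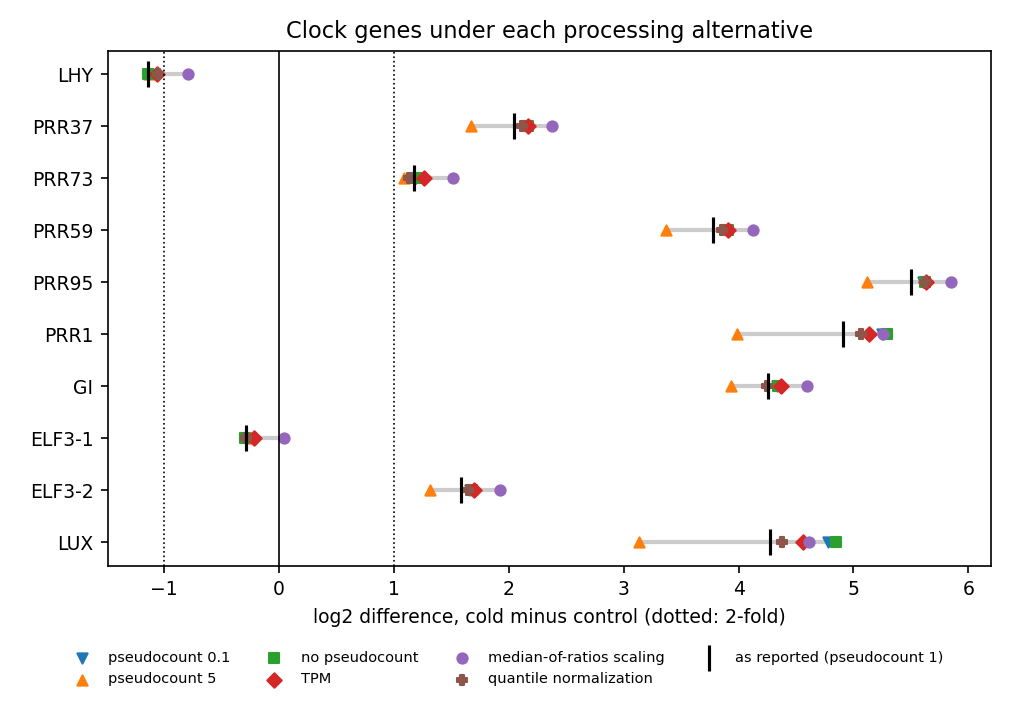
Log2 difference, cold minus control, of each clock gene as reported (black bar) and under 3 other pseudocounts and 3 scalings (symbols), joined by a grey line, with dotted lines at 2-fold. The 8 higher genes stay beyond 2-fold under all 6, LHY passes inside the limit under median-of-ratios scaling, and ELF3-1 lies on both sides of 0, from −0.30 to 0.05.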

How the data were processed

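The authors deposited 1 table of FPKM values with a column for control and a column for cold. Its unit is given by the deposited table's name. HISAT2 2.1.0, Bowtie, SAMtools, featureCounts 1.6.4, FastQC, Trim Galore 0.4.3 and Trimmomatic 0.39 are named for the series as a whole, per the submitters' processing notes, with no role. The build and annotation, and how strand and shared reads were treated, are not given in these sources, so no coordinates are printed. FPKM values of a column are relative, so a change in its most abundant transcripts moves the rest.

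The 10 genes, their grouping and the comparisons were chosen with earlier results of these data known. Loci averaging 1 FPKM or more over the 2 columns were kept for comparisons with the table. Differences are of log2(FPKM + 1), a pseudocount of 1, and folds or ratios are of FPKM. The named loci are the 10 genes, the 2 loci nearest to the clock gene with the largest difference in each direction, and adjacent loci past 2-fold. A further 3 adjacent loci within 2-fold were named after their values had been seen. Alternatives were pseudocounts of 0.1 and 5 and none, no filter on level, a floor of 5 FPKM, limits of 1.5-fold and 4-fold, ratios of FPKM + 1, rescaling to equal sums (TPM), median-of-ratios scaling and quantile normalization. The functions for folds and for median-of-ratios scaling were tested on simulated data, and those for TPM and quantile normalization were not. Promoter motifs and protein sequences, planned as a description, were not analysed here. Python 3.11.15, numpy 2.4.6, pandas 2.3.3 and matplotlib 3.10.9 were used.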

Additional observations from a re-analysis of the deposited data

How the results depend on the processing

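Each value was called moved where an alternative changed it by more than 0.5 on the log2 scale, or 1.5-fold for counts. Of 103 recomputed values, 9 moved and 94 did not. No value past 2-fold changed sign, but that of ELF3-1, within 2-fold at −0.29, was 0.05 under median-of-ratios scaling. The count of 8 higher clock genes was the same under all pseudocounts and scalings and at 1.5-fold, and was 6 at 4-fold. The share of all loci kept that were higher was not the same. It lay between 7.97% with a pseudocount of 5 and 20.5% at 1.5-fold, and was 3.86% at 4-fold. All 10 genes had a mean of at least 10 FPKM. The alternative filters on level thus could not change the counts of higher and lower genes or the median of the 10. Median-of-ratios scaling changed the cold column by 0.35 on the log2 scale. It thus could not move the log2 difference of any of the 10 genes, or their median, by more than 0.5. At the 1.5-fold limit the count of higher genes could only stay at 8 or rise to at most 10, which would not count as moved. All these fixed values are among the 94. The count of 1 lower gene, LHY, became 0 under median-of-ratios scaling, where its log2 difference was −0.79, and 0 at the 4-fold limit. The log2 difference of LUX was 4.78 with a pseudocount of 0.1, 3.13 with 5 and 4.85 with none, and that of PRR1 was 3.99 with 5. With a pseudocount of 5 the median of the 10 genes was 2.40, and 2.57 above that of all loci. A pseudocount of 5 shrinks low values most. The log2 change of the LHY to LUX ratio, −5.99, was −5.41 as a ratio of FPKM + 1. Median-of-ratios scaling multiplied the cold column by 1.27 and moved the median of all loci kept by 0.30, quantile normalization by 0.17 and TPM by 0.05. The floor of 1 was applied again after each scaling, so the set of loci kept could differ. The share of all loci at least 2-fold higher was 7.97% with a pseudocount of 5 and that of lower ones 7.75%. No paired analysis was possible because the table holds no library columns, and for the same reason no replicate could be left out. Depth is unknown, so the counting error of low values, such as LUX and PRR1 in control, is too.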

Other observations

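The loci next to the clock genes in the order of the identifiers were also listed. Of these 20 neighbours, 13 had a mean of at least 1 FPKM, with a median log2 difference of −0.03, and past the 2-fold limit 4 of the 13 were higher and 1 was lower, where over all loci kept 12.5% were higher and 19.2% lower. Of the 13, 10 lay beside a clock gene at least 2-fold higher in cold, the 4 among them. Beside LUX, LOC_Os01g74010 stood at 22.6 FPKM without cold and 87.1 FPKM with it. Beside PRR1, LOC_Os02g40500 was listed at 6.18 FPKM and 29.5 FPKM. LOC_Os09g36230, beside PRR95, was listed at 1.59 FPKM and 10.3 FPKM, and LOC_Os11g05935, beside PRR59, at 4.18 FPKM and 12.0 FPKM. LOC_Os06g05070, beside ELF3-1, was lower, at 2.14 FPKM and 0.398 FPKM. Other neighbours of higher clock genes had lower values in cold, within 2-fold on the log2(FPKM + 1) scale: LOC_Os03g17580, beside PRR73, stood at 153 FPKM and 78.2 FPKM, and LOC_Os02g40514, beside PRR1, at 18.1 FPKM and 8.90 FPKM. Shared or unstranded reads of overlapping neighbours were not tested, since distances and strands are not known here. The locus before LHY, LOC_Os08g06100, was abundant as well, at 749 FPKM without cold and 451 FPKM with it, also within 2-fold on that scale. These last 3 loci were named after their values had been seen.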
